A study of Saccharomyces cerevisiae with 5 samples.

Results

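ARS305 is an early-efficient replication origin on chromosome III of Saccharomyces cerevisiae. The stretch described here runs from the minus border of its nucleosome-free region (NFR) over the +1 and +2 nucleosomes to the end of the excised chromatin ring. It was chosen by position, as positions 481 to 1084 of the ring counted from the first base of the deposited tables, and holds 604 of the 1084 positions of the ring and of the 4597 positions of all 4 rings of the series. Cut into pieces of 30 bp, it gave 20 complete windows (17 to 36 of the ring) of the 152 windows of the series, and these were grouped into 9 regions whose borders follow the study's own drawing of the origin. The names of the regions follow that drawing and the 30-bp grid, and do not mark measured ends of nucleosomes.

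An origin of budding yeast holds an ARS consensus sequence (ACS) that is bound by the origin recognition complex, and this site lies in an NFR flanked by positioned nucleosomes. The nucleosome next to the T-rich strand of the ACS is called +1, the next one +2, and the DNA between nucleosomes is the linker. Isw2 is the ATPase of a remodeling complex that slides and spaces nucleosomes, and Ies6 belongs to the INO80 remodeling complex, which also spaces nucleosomes next to NFRs. In MATAC-Seq, purified chromatin is methylated in vitro by EcoGII on adenines and by M.CviPI and M.SssI on cytosines in GpC and CpG, and DNA wrapped around a nucleosome is methylated less than free DNA. Single molecules are then read on a Nanopore flow cell.

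The libraries came from isw2Δ cells (replicates 1 and 2, ISW2 replaced by ura3), ies6Δ cells (replicates 1 and 2, IES6 replaced by his) and wildtype cells (1 library, labelled as replicate 2). All strains were MATa ura3Δ0 leu2Δ0 his3Δ1 met15Δ0 bar1::kanMX4. They carried recombination sites and LexA binding sites outside the third nucleosome on each side of the origin, and a LEU2 cassette on chromosome I with LexA-TAP under the TEF2 promoter and the recombinase under the galactose-inducible GAL1-10 promoter. Each library was pooled from 4 strains, 1 per origin, so that all ARS305 rings of a library came from a single strain, and the cells were arrested in G1 with alpha-factor. Wildtype values have no replicate check, and the labels do not say whether replicates were separate cultures, while the study calls them biological replicates.

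Each mutant library held 1560 reads of ARS305 (780 on each strand), and the wildtype library held 1495 (715 forward and 780 reverse). None of the 7735 reads was repeated. Within the stretch, calls came from forward reads at 309 positions and from reverse reads at 295, and from both at none. Per position, the share of methylated reads was scaled to the average over the nucleosomal array in that library, and this ratio is called the level, so that 1 is the mean accessibility of an in vitro assembled array. The array itself was methylated to 12.2 and 11.8% in isw2Δ, 10.2 and 9.02% in ies6Δ and 6.96% in wildtype, and the stretch to 19.8 and 19.6% in isw2Δ, 16.2 and 14.4% in ies6Δ and 8.77% in wildtype.

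The tables do not name bases. Primers of the study that fall into the stretch gave the sequence at 4 sites, which are shown because the wildtype library differed from the mutants by the kind of base. They are written 5′ to 3′ on the top strand, and capitals mark each base that was methylated in a larger share of reads in wildtype than in every one of the 4 mutant libraries.
Minus border, positions 484 to 503: tttCatgtaCtgtCCGgtgt
Start of +1, positions 666 to 686: aaCttacacGGGGGctaaaaa
Linker +2/+3, positions 934 to 950: CttattcaGGCGgagaG
Linker +2/+3, positions 950 to 967: GGCtCtaGGgtagttgcG
Every capital was a C or a G, that is, a cytosine of the top or the bottom strand. They were 5 of 9, 6 of 9, 6 of 9 and 7 of 11 of the C and G bases of these sites, in the order printed, and none of the A and T bases was among them. Each printed sequence matched the called strands at 100% of its bases, and the next best place at most at 88.9%. For the site at 934 to 950, 2 bases of the primer were left out to reach this match.

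Adenines and cytosines differed in opposite directions before any normalization. The 38 adenines of these sites, on either strand, were on average methylated in 21.7 and 20.1% of reads in isw2Δ, 15.8 and 13.8% in ies6Δ and 7.93% in wildtype. The 8 cytosines of CpG averaged 4.46 and 7.5% in isw2Δ, 6.51 and 6.47% in ies6Δ and 9.97% in wildtype. The 29 other cytosines averaged 2.11 and 3.26% in isw2Δ, 3.21 and 3.49% in ies6Δ and 5.35% in wildtype. Wildtype was thus below all mutant libraries on adenines and above all of them on both kinds of cytosine.

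The naked plasmid spike-in holds the ARS305 sequence and separated these kinds of base. By their called strands, 18 of the 20 windows were placed in it with 100% of positions matching, against at most 78.3% at another place, which gave 540 placed positions. Of these, 178 were methylated in under 3% of naked reads of the mutant libraries, among them all 22 placed cytosines of known identity. The other 362 were at 3% or more, among them all 26 placed adenines of known identity. Positions under 3% carried 2.01 and 4.29% of the methylation of the placed stretch in isw2Δ, 3.18 and 3.37% in ies6Δ and 11.4% in wildtype. Of the 604 positions of the stretch, 90 were methylated in a larger share of reads in wildtype than in each mutant library. Of these, 71 were under 3% in naked DNA, 0 were at or over it and 19 were not placed.

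**Figure D1:**
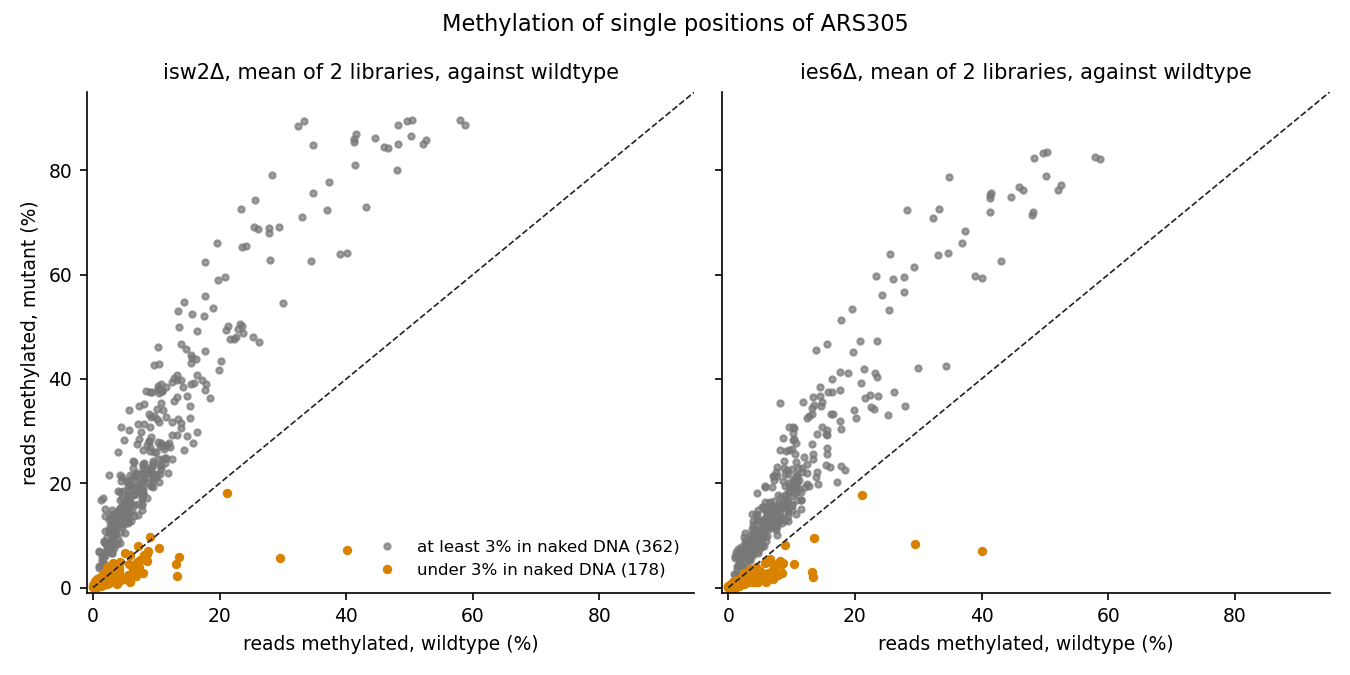
Share of reads methylated at each of the 540 placed positions in isw2Δ (left) and ies6Δ (right, each the mean of 2 libraries, y axis) against wildtype (x axis), in percent. All 362 positions at 3% or more in the naked plasmid lie above the dashed line of equal shares, while many of the 178 positions under 3% lie below it.

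The single positions that moved most show both kinds. Position 541 in the NFR had the largest change of the level in both mutants, a decrease: 3.33 and 11.2% of forward reads were methylated there in isw2Δ, 7.82 and 6.28% in ies6Δ and 40.1% in wildtype (Wilson 95% interval of wildtype 36.6 to 43.8%). In naked DNA it was methylated in 0.385 and 1.41% of reads in isw2Δ, 1.92 and 0.897% in ies6Δ and 18.6% in wildtype. This position therefore differed in the same direction in the spike-in and in chromatin. The largest increases, named after their values were seen, were at position 619 in isw2Δ and at position 578 in ies6Δ. Position 619 in the plus border was methylated in 86.4 and 90.4% of reverse reads in isw2Δ, 70.8 and 70.9% in ies6Δ and 32.3% in wildtype. Position 578 in the NFR was methylated in 78.3 and 79.7% in isw2Δ, 71.0 and 73.6% in ies6Δ and 28.2% in wildtype. In naked DNA, position 578 was at 75.9 and 80.1% in isw2Δ, 81.2 and 84.1% in ies6Δ and 26.9% in wildtype (14 of 52 reads). It thus also differed in the same direction in the spike-in and in chromatin. Position 619 was at 87.7 and 99.1% in naked DNA of isw2Δ, 98.7 and 99.1% in ies6Δ and 80.8% in wildtype. All intervals given here cover the counting of reads only.

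Over the whole stretch the level was 1.62 and 1.66 in isw2Δ, 1.58 and 1.59 in ies6Δ and 1.26 in wildtype. From the NFR to +2 the profile had the same order of open and protected DNA in all 5 libraries. An NFR peak came before a fall over the plus border and a protected +1 nucleosome. A broad linker and a fall at the start of +2 came next, and +3 was low. The linker between +2 and +3 was above +2 in wildtype (1.0 against 0.933) and ies6Δ replicate 2, and below it in the other libraries. The plot of the running mean shows the mutant libraries above wildtype over the NFR, the plus border and the linker between +1 and +2. Around +2 they were close to it. At position 942, in the linker between +2 and +3, wildtype reached 1.54, above its highest value of 1.47 in the linker before +2. The mutant libraries were lower at 942, with 0.988 and 1.04 in isw2Δ and 1.18 and 1.28 in ies6Δ. Of the 9 regions, 7 were higher in isw2Δ than in wildtype and 4 in ies6Δ by limma at an adjusted p under 0.05, and 0 were lower, also at an unadjusted p under 0.05. Over the 52 regions and 90-bp stretches of all rings, 53.8% were higher and 1.92% lower in isw2Δ, and 34.6% higher and 3.85% lower in ies6Δ, so higher levels were common across the series as well. The median log2 change of the 9 regions was 0.40 in isw2Δ and 0.28 in ies6Δ, beside 0.27 and 0.21 over all 52. On forward reads alone, 1 of the 7 higher regions kept its call in isw2Δ and 2 of the 4 in ies6Δ.

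**Figure D2:**
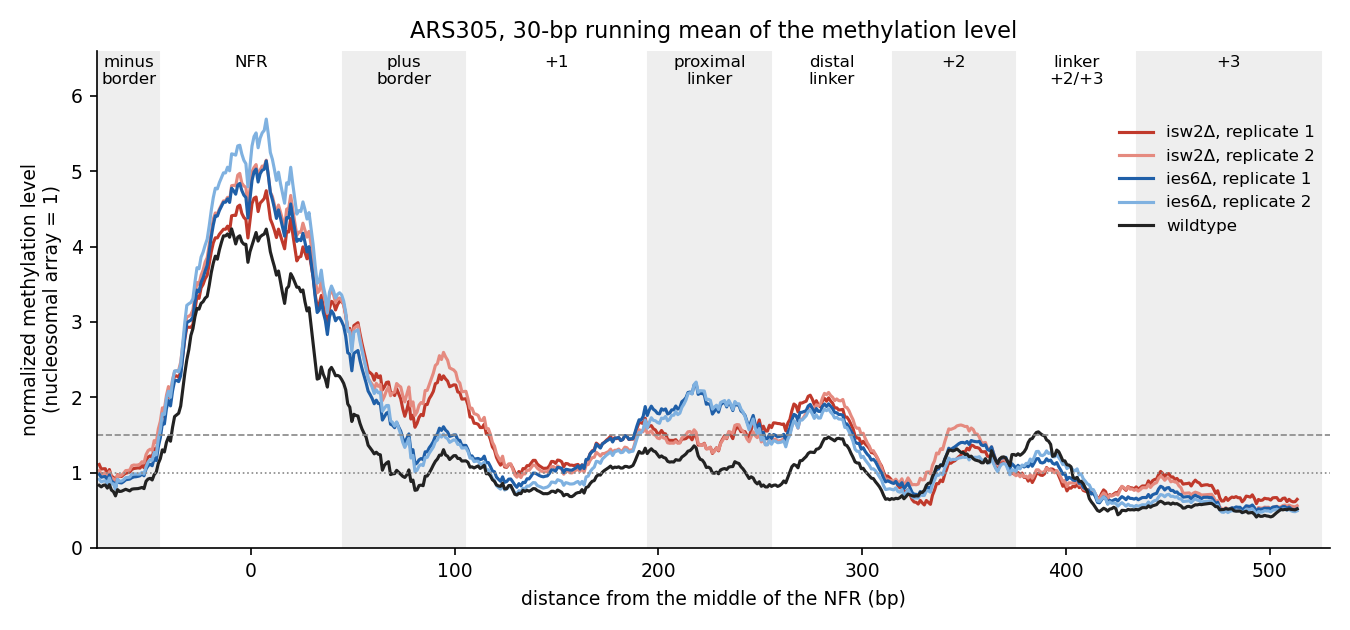
Running mean (30 bp) of the level (y axis, nucleosomal array = 1) of the 5 libraries against the distance from the middle of the NFR in bp, with the 9 regions as bands. The dashed line at 1.5 is the level used for the edge of the NFR, which the isw2Δ libraries cross at positions 672 and 673, the ies6Δ libraries at 629 and wildtype at 611.

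The NFR, which holds the ACS, was the most open region in every library. Its level (positions 511 to 600) was 3.68 and 3.96 in isw2Δ, 3.81 and 4.18 in ies6Δ and 3.17 in wildtype. All mutant libraries were above wildtype, and the ranges of both mutants overlapped. In isw2Δ the log2 change was 0.27 (standard error 0.119, limma, adjusted p = 0.0497), and in ies6Δ it was 0.33 (adjusted p = 0.0185), and the difference between isw2Δ and ies6Δ was -0.07 (adjusted p = 0.746). The isw2Δ change lies at the threshold and did not pass without isw2Δ replicate 1 (adjusted p = 0.0757) or replicate 2 (adjusted p = 0.261), and the ies6Δ change did not pass without ies6Δ replicate 2 (adjusted p = 0.0768). Neither passed on forward reads alone (adjusted p = 0.121 in isw2Δ and 0.0982 in ies6Δ) or when limma was given a trend (adjusted p = 0.186 and 0.108). The running mean peaked at position 563 in all 4 mutant libraries, with 4.74 and 5.15 in isw2Δ and 5.14 and 5.69 in ies6Δ, and at position 546 in wildtype, with 4.23.

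Set against naked DNA of the same library, the NFR was methylated to 101 and 96.6% of the naked plasmid in isw2Δ, 86.0 and 81.7% in ies6Δ and 72.3% in wildtype. At the window with the highest share in the mutants (571 to 600), it reached 110 and 105% in isw2Δ, 92.7 and 89.0% in ies6Δ and 73.4% in wildtype. On this scale isw2Δ was above ies6Δ, whereas their levels overlapped. The naked plasmid was methylated to 33.6 and 34.8% in isw2Δ, 33.2 and 33% in ies6Δ and 25% in wildtype, and its wildtype reverse reads numbered only 52. The position with the highest level of wildtype in the NFR, position 570, was methylated in 87.3 and 90.1% of reads in isw2Δ, 84.2 and 80.3% in ies6Δ and 58.7% in wildtype, against 83.8 and 90.9%, 90.9 and 93.3%, and 73.1% in naked DNA of the same libraries.

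**Figure D3:**
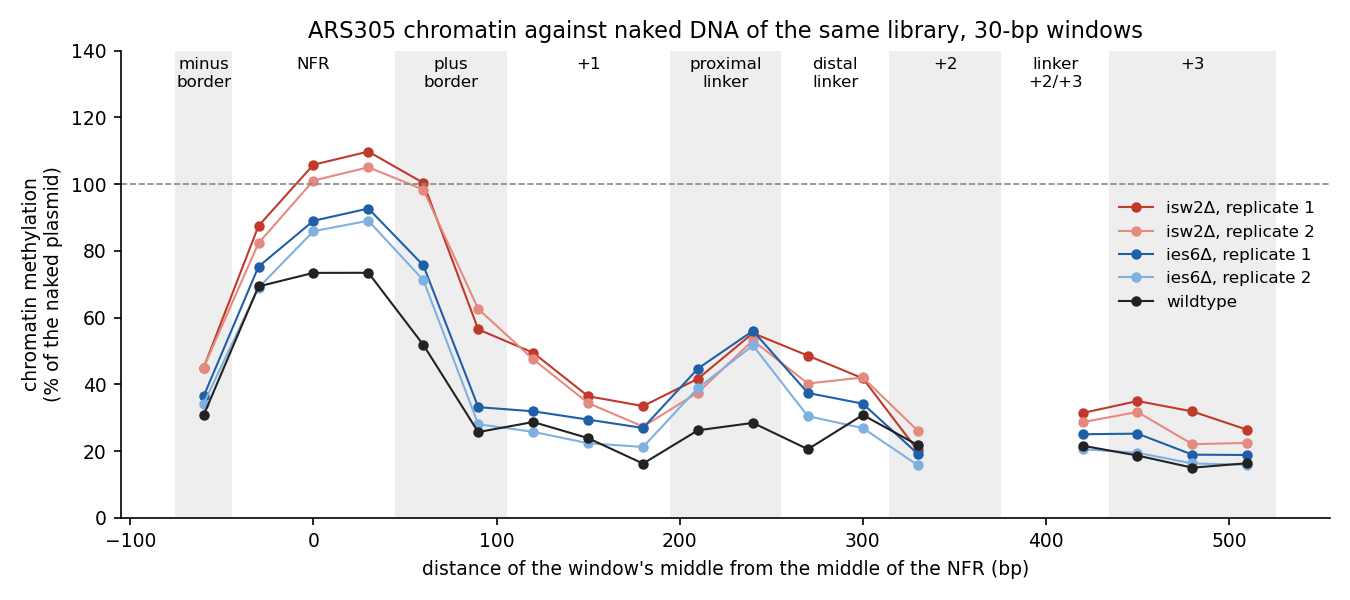
Methylation of ARS305 chromatin as percent of the naked plasmid of the same library (y axis) in 30-bp windows against the distance from the middle of the NFR in bp. Windows 31 and 32 were not placed and are left out. Both isw2Δ libraries lie at 98.4% or above from 541 to 630, while wildtype is at most at 73.4%.

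The minus border of the NFR lies next to the -1 nucleosome. Its level (481 to 510) was 0.997 and 1.03 in isw2Δ, 0.908 and 0.935 in ies6Δ and 0.766 in wildtype. In isw2Δ the log2 change was 0.40 (limma, adjusted p = 0.00302), and in ies6Δ it was 0.27 (adjusted p = 0.0600), which did not pass. On forward reads alone, which call 10 of its 30 positions, the isw2Δ change was 0.087 and did not pass (adjusted p = 0.436). At a level of 1.5 of the running mean, the NFR began at positions 511 and 510 in isw2Δ, 512 and 511 in ies6Δ and 517 in wildtype. The start thus lay within 7 bp in all libraries, and most of the difference in width came from the plus side.

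The plus border, between the NFR and the +1 nucleosome, had the largest change of the 9 regions in isw2Δ and set both mutants apart from each other. Its level (601 to 660) was 2.19 and 2.25 in isw2Δ, 1.70 and 1.73 in ies6Δ and 1.19 in wildtype. The 3 genotypes did not overlap. In isw2Δ the log2 change was 0.89 (limma, adjusted p = 1.30e-09), and in ies6Δ it was 0.52 (adjusted p = 0.000187). The difference between isw2Δ and ies6Δ was 0.37 (standard error 0.0974, adjusted p = 0.00639). This difference kept its direction in all alternatives, but lost the call in several, among them without isw2Δ replicate 1 (adjusted p = 0.0727), without isw2Δ replicate 2 (adjusted p = 0.156), after division by windows 1 to 16 of the ring (0.28, adjusted p = 0.128) and with reverse reads only (0.21, adjusted p = 0.353). Of the 9 regions, 2 passed in this contrast, beside 7.69% of the 52 regions and stretches of all rings.

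Within the plus border, both windows behaved differently. At 601 to 630 the level was 2.3 and 2.2 in isw2Δ, 1.98 and 2.13 in ies6Δ and 1.29 in wildtype, a log2 change of 0.79 in isw2Δ (limma, adjusted p = 4.75e-06) and 0.67 in ies6Δ (adjusted p = 8.81e-05). At 631 to 660 it was 2.08 and 2.32 in isw2Δ, 1.41 and 1.34 in ies6Δ and 1.10 in wildtype. The difference between isw2Δ and ies6Δ was 0.12 at the first (adjusted p = 0.596) and 0.68 at the second (adjusted p = 3.62e-06). Scaled to the array, the opening closer to the NFR was thus found in both mutants, and that closer to +1 was larger in isw2Δ. In naked DNA units, 631 to 660 stood at 56.5 and 62.6% in isw2Δ, 33.2 and 28.1% in ies6Δ and 25.7% in wildtype. On this scale isw2Δ was above ies6Δ at 601 to 630 as well, with 100 and 98.4% against 75.7 and 71.3%, and 51.9% in wildtype.

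The plus edge of the NFR followed this shape. At a level of 1.5, the edge lay at 672 and 673 in isw2Δ, 629 in both ies6Δ libraries and 611 in wildtype, and the NFR was 162 and 164 bp, 118 and 119 bp, and 95 bp wide. Replicates differed by at most 2 bp. No permutation of libraries can give a p under 0.333 here, neither for 2 against 1 nor for 2 against 2. All 5 libraries had a local minimum of the running mean at position 636 and a second rise to a maximum at 648 to 650. The minimum was 1.60 and 1.76 in isw2Δ, 1.11 and 1.01 in ies6Δ and 0.764 in wildtype, and the maximum was 2.30 and 2.60, 1.61 and 1.51, and 1.30. At a level of 1.5 the edge of isw2Δ therefore includes this second rise, and that of ies6Δ does not, though its second rise also reached 1.5. At a level of 2, which no minimum reached, the edges were 628 and 619 in isw2Δ, 614 and 619 in ies6Δ and 602 in wildtype. There the mutants overlapped, and both remained beyond wildtype. The overlap rests on a single position of isw2Δ replicate 2. Its running mean was 1.96 at 620 and above 2 again from 621 (2.01) to 630 (2.02). At mid-height of the peak in each library, the edges were 612 and 610 in isw2Δ, 604 in both ies6Δ libraries and 601 in wildtype, a smaller difference in the same order.

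**Figure D4:**
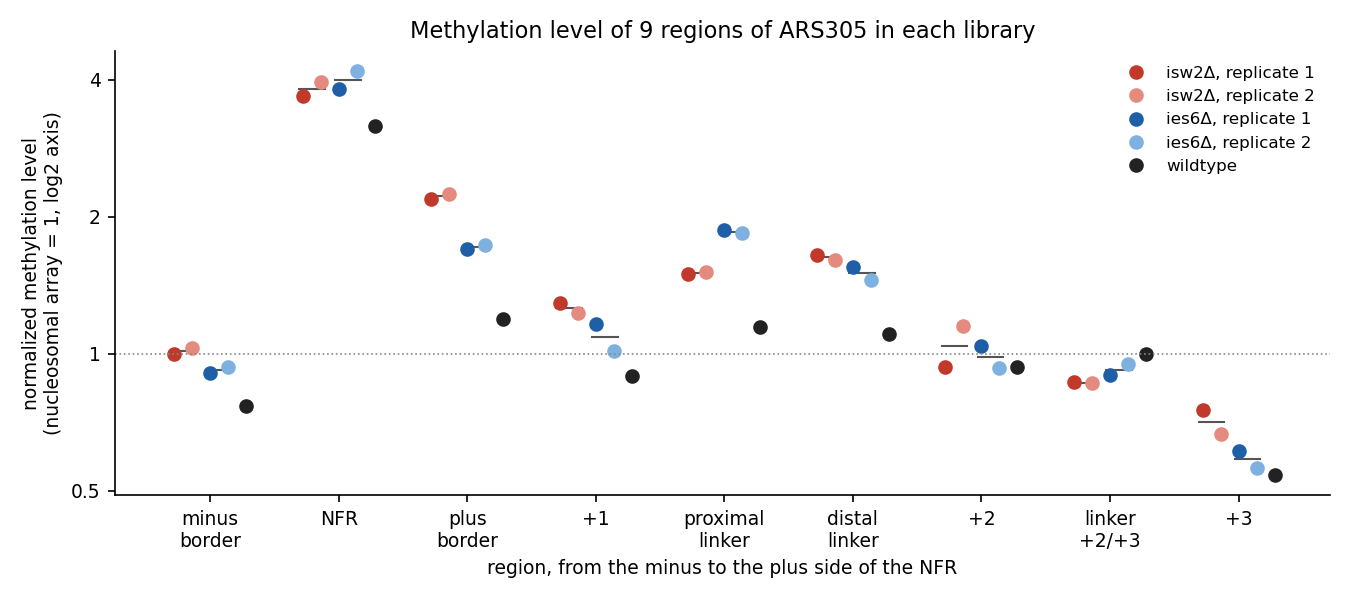
Level of the 9 regions (y axis, log2 scale, nucleosomal array = 1) in each library. Grey lines are the means of the 2 libraries of a mutant. At the plus border the points fall from isw2Δ over ies6Δ to wildtype without overlap, while in the proximal linker ies6Δ is highest.

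Over both strands, the +1 nucleosome (661 to 750) was less protected in isw2Δ. Its level was 1.29 and 1.23 in isw2Δ, 1.16 and 1.01 in ies6Δ and 0.895 in wildtype. In isw2Δ the log2 change was 0.49 (limma, adjusted p = 0.000449), and in ies6Δ it was 0.28 (adjusted p = 0.0518), and the difference between isw2Δ and ies6Δ was 0.22 (adjusted p = 0.191). The ies6Δ change was 0.18 without ies6Δ replicate 1 (adjusted p = 0.283) and 0.38 without ies6Δ replicate 2, where it passed (adjusted p = 0.0132). In the window next to the NFR, 661 to 690, the level was 1.30 and 1.35 in isw2Δ, 1.01 and 0.897 in ies6Δ and 0.882 in wildtype, and here isw2Δ was above ies6Δ by 0.48 (adjusted p = 0.00239). The lowest running mean of +1 was 0.965 and 0.932 in isw2Δ, 0.803 and 0.720 in ies6Δ and 0.680 in wildtype. It lay at 686 to 688 in the mutant libraries and at 713 in wildtype, but at 686 in wildtype as well once positions under 3% in naked DNA were set to 0. Relative to naked DNA, +1 was at 38.6 and 34.8% in isw2Δ, 29 and 22.7% in ies6Δ and 21.1% in wildtype.

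The linker between +1 and +2 rose in both mutants, and its proximal and distal parts did so to a different degree. In the proximal part (751 to 810) the level was 1.5 and 1.51 in isw2Δ, 1.87 and 1.84 in ies6Δ and 1.14 in wildtype. In isw2Δ the log2 change was 0.40 (limma, adjusted p = 0.00321), and in ies6Δ it was 0.70 (adjusted p = 1.41e-06), and isw2Δ was below ies6Δ by a log2 difference of -0.30 (adjusted p = 0.0331). This was the largest change of the 9 regions in ies6Δ. In the distal part (811 to 870) the level was 1.65 and 1.61 in isw2Δ, 1.55 and 1.45 in ies6Δ and 1.10 in wildtype. Here the changes were 0.56 in isw2Δ (adjusted p = 6.73e-05) and 0.44 in ies6Δ (adjusted p = 0.00191), with a difference between isw2Δ and ies6Δ of 0.12 (adjusted p = 0.511). The difference in the proximal part did not pass when any of the 4 mutant libraries was left out (adjusted p between 0.0621 and 0.280 from limma). It was -0.02 with the naked plasmid for normalization and 0.02 without normalization.

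The log2 ratio of the distal to the proximal part does not depend on the scaling to the array. It was 0.14 and 0.089 in isw2Δ, -0.27 and -0.35 in ies6Δ and -0.049 in wildtype. Both isw2Δ libraries were above wildtype and both ies6Δ libraries below it, on each strand alone and after division by naked DNA as well. The side to which the linker was weighted was not stable in isw2Δ and wildtype: the ratio in isw2Δ was -0.029 and -0.075 on forward reads alone and -0.077 and -0.12 after division by naked DNA, and that of wildtype was 0.22 on reverse reads alone. The highest running mean of the linker lay at 830 and 839 in isw2Δ, 774 in both ies6Δ libraries and 839 in wildtype, but this position jumped between separate summits: with a running mean of 50 bp it was 825 and 827 in isw2Δ and 783 in both ies6Δ libraries and in wildtype. The centre of mass of the linker was 801 and 807 in isw2Δ, 797 in both ies6Δ libraries and 804 in wildtype, so that isw2Δ and wildtype overlapped. Divided by naked DNA, window 781 to 810 was the highest of the linker in all mutant libraries, with 55.4 and 53.2% in isw2Δ and 56.0 and 51.7% in ies6Δ, against 28.5% in wildtype, whose highest window was 841 to 870 with 30.8%. Position 761, the highest of the wildtype linker, was methylated in 48.2 and 51.9% of reads in isw2Δ, 44.2 and 36.5% in ies6Δ and 23.5% in wildtype.

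The contrast between the open linker and the protected +1 nucleosome also set ies6Δ apart. The log2 ratio of linker to +1 was 0.29 and 0.34 in isw2Δ, 0.56 and 0.70 in ies6Δ and 0.33 in wildtype. In isw2Δ this ratio lay around that of wildtype, whereas both ies6Δ libraries were above it. The log2 ratio of the plus border to the NFR was -0.75 and -0.82 in isw2Δ, -1.17 and -1.27 in ies6Δ and -1.41 in wildtype. It was highest in isw2Δ, where the border came closest to the NFR.

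At the +2 nucleosome no change passed the threshold over both strands. Its level (871 to 930) was 0.936 and 1.15 in isw2Δ, 1.04 and 0.929 in ies6Δ and 0.933 in wildtype. The wildtype value lay within the range of ies6Δ and just below that of isw2Δ, and the log2 changes were 0.15 (adjusted p = 0.270 from limma) and 0.08 (adjusted p = 0.655). The strands disagreed, with changes of 0.53 in isw2Δ (adjusted p = 0.00227) and 0.49 in ies6Δ (adjusted p = 0.00736) on reverse reads alone, and of -0.13 and -0.22 on forward reads alone. The windows of +2 differed in height. At 871 to 900 the level was 0.597 and 0.902 in isw2Δ, 0.725 and 0.695 in ies6Δ and 0.738 in wildtype. At 901 to 930 it was 1.27 and 1.39, 1.36 and 1.16, and 1.13. This wildtype value lay within the range of its windows in the linker before +2 (1.05 to 1.16). No change against wildtype passed in either window (limma, lowest adjusted p = 0.167). At 871 to 900, which was placed, positions split by naked DNA went in opposite directions. The 17 positions at 3% or more were higher in all mutant libraries. Their level was 0.9003 and 1.17 in isw2Δ, 1.01 and 0.986 in ies6Δ and 0.699973 in wildtype. The 13 positions under 3% were lower, with 0.201 and 0.554 in isw2Δ, 0.356 and 0.315 in ies6Δ and 0.787 in wildtype. This split was not tested, and its limit was set on naked reads of the mutant libraries. The lowest running mean of +2 lay at 886 and 956 in isw2Δ, 883 in both ies6Δ libraries and 869 in wildtype. The minimum of isw2Δ replicate 2 thus fell outside the +2 region, and with positions under 3% in naked DNA set to 0 the minima were at 886 and 880, 883, and 883.

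The linker between +2 and +3 (931 to 990) was the only region with a lower mean level in both mutants than in wildtype. Over both strands these changes did not pass the threshold. Its level was 0.864 and 0.861 in isw2Δ, 0.898 and 0.947 in ies6Δ and 1.0 in wildtype. On the log2 scale isw2Δ changed by -0.21 (limma, adjusted p = 0.114) and ies6Δ by -0.12 (adjusted p = 0.493). On forward reads alone, this linker passed the threshold as lower in both mutants. Its windows went in opposite directions. At 931 to 960 the level was 0.983 and 1.02 in isw2Δ, 1.14 and 1.24 in ies6Δ and 1.49 in wildtype, a log2 change of -0.58 in isw2Δ (adjusted p = 0.000705) and of -0.32 in ies6Δ (adjusted p = 0.0768). At 961 to 990 it was 0.746 and 0.707 in isw2Δ, 0.658 and 0.652 in ies6Δ and 0.512 in wildtype, a log2 change of 0.50 in isw2Δ (adjusted p = 0.00307) and of 0.36 in ies6Δ (adjusted p = 0.0478).

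The decrease at 931 to 960 went with the kind of base. Of the 34 positions with known bases in this linker, the 15 adenines averaged 21.9 and 19.0% of reads in isw2Δ, 17.3 and 16.1% in ies6Δ and 8.43% in wildtype. The 19 cytosines averaged 4.37 and 6.29% in isw2Δ, 6.66 and 7.06% in ies6Δ and 10.2% in wildtype. Before normalization, adenines were thus higher and cytosines lower in every mutant library, and the capitals of both sites of this linker are such cytosines. In naked DNA, placed positions at 3% or more averaged 55.7 and 57.9% in isw2Δ, 55.5 and 55.8% in ies6Δ and 37.6% in wildtype. Placed positions under 3% averaged 0.46 and 0.522% in isw2Δ, 0.56 and 0.299% in ies6Δ and 3.25% in wildtype. This limit was set on mutant reads, and most of the linker at 931 to 960 was not placed. Since wildtype is a single library, a property of that library and the genotype cannot be told apart from the rings alone, and the cause was not tested.

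The +3 nucleosome (991 to 1080) had the lowest level of all regions in every library. It was 0.751 and 0.667 in isw2Δ, 0.610 and 0.561 in ies6Δ and 0.541 in wildtype. In isw2Δ the log2 change was 0.39 (limma, adjusted p = 0.00387), and in ies6Δ it was 0.11 (adjusted p = 0.494), with a difference between isw2Δ and ies6Δ of 0.27 (adjusted p = 0.0603). The isw2Δ change came mostly from 991 to 1020, with 0.69 (adjusted p = 7.51e-05), against 0.13 and 0.23 in the windows that follow, which did not pass. The region did not pass without isw2Δ replicate 1 (adjusted p = 0.0915), nor on forward reads alone (0.21, adjusted p = 0.380).

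**Figure D5:**
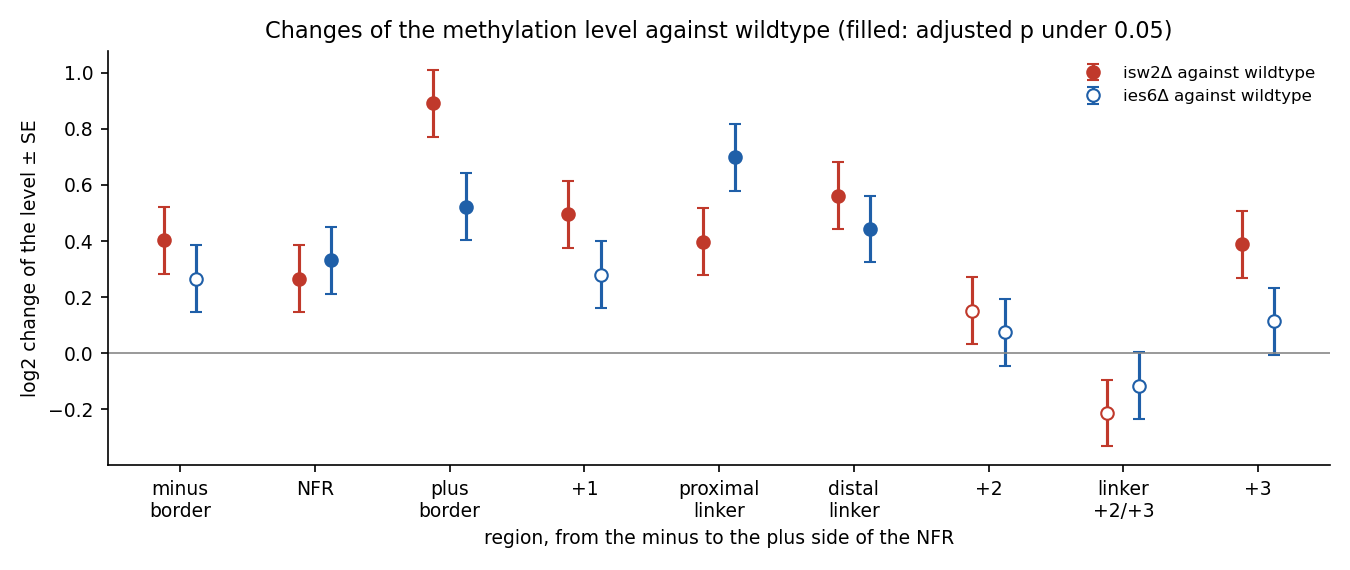
Log2 change of the level against wildtype (y axis, error bars: standard error of limma) of the 9 regions in isw2Δ and ies6Δ. Filled symbols passed an adjusted p of 0.05: 7 regions in isw2Δ and 4 in ies6Δ.

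At the scale of 30-bp windows, 12 of the 20 windows were higher and 1 was lower in isw2Δ than in wildtype, and 7 were higher and 0 lower in ies6Δ. Over the 152 windows of the series, limma called 46.1% higher and 4.61% lower in isw2Δ, and 30.9% higher and 3.95% lower in ies6Δ. The share in ies6Δ, 35%, was near this background, and that of isw2Δ, 60%, was above it. Whether the stretch differs from the background was not tested, and its 20 windows are part of the 152. The 7 windows of ies6Δ were 571 to 630, 721 to 840 and 961 to 990, that is, the end of the NFR, the first window of its plus border, the end of +1 and the linkers. Without a threshold for multiple windows, 1 window was lower in ies6Δ at an unadjusted p under 0.05. Between isw2Δ and ies6Δ, 3 of the 20 windows passed, beside 5.26% of all windows. They were 631 to 660 and 661 to 690, higher in isw2Δ, and 751 to 780, lower in isw2Δ (-0.37, adjusted p = 0.0431).

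When positions at 3% or more in naked DNA were taken alone, a choice made after seeing the data, the changes against wildtype became larger in all 7 regions that were placed as a whole. The log2 changes in isw2Δ were 0.59 at the minus border, 0.35 at the NFR, 0.91 at the plus border, 0.61 at +1, 0.54 and 0.61 at the proximal and distal linker and 0.81 at +3. In ies6Δ they were 0.45, 0.42, 0.54, 0.40, 0.85, 0.50 and 0.50, in the same order. The shift was smallest at the plus border, where 47 of 60 positions were kept, and largest at +3, where 45 of 90 were kept. Both differences that passed between isw2Δ and ies6Δ were little affected, with 0.37 at the plus border and -0.31 at the proximal linker. These values were not tested, and they are no independent support: the limit was set on naked reads of the mutant libraries, and no position it kept was higher in wildtype than in every mutant library, so the choice itself raised the changes.

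Single molecules showed how many rings carried methylation in each region. An NFR with at least 1 methylated base was found in 98.7 to 100% of reads in isw2Δ, 96.5 to 98.8% in ies6Δ and 91.6 and 94.6% in wildtype, over both strands. At the plus border, forward reads with at least 1 methylated base made up 88.6 and 86.8% in isw2Δ, 74.1 and 70.6% in ies6Δ and 39.3% in wildtype (Wilson 95% interval 35.8 to 42.9%). In the +3 nucleosome, the most protected region, this share of forward reads was 71.4 and 68.3% in isw2Δ, 58.5 and 51.0% in ies6Δ and 44.6% in wildtype. On forward reads the plus border of wildtype thus carried methylation in no more molecules than its +3 nucleosome, while in all mutant libraries it did so in more. Reverse reads did not show this for wildtype, where the plus border of wildtype had 73.6% of such reads and its +3 nucleosome 47.6%, although only 12 positions of the plus border are called on reverse reads, against 48 on forward reads. For the proximal linker the share of forward reads was 84.7% in both isw2Δ libraries, 83.3 and 79.5% in ies6Δ and 54.1% in wildtype, and for the distal linker 78.3 and 75.6%, 65.9 and 59.4%, and 42.0%. These shares are not divided by the array, whose methylation also differed between the libraries.

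The number of strongly methylated positions separated some of the regions in the same way. In the plus border, 37 and 33 of 60 positions were methylated in at least 20% of reads in isw2Δ, 20 and 13 in ies6Δ and 5 in wildtype. In the proximal linker these were 25 and 26 of 60 in isw2Δ, 31 and 25 in ies6Δ and 3 in wildtype. In +1 they were 33 and 27 of 90 in isw2Δ, 15 and 6 in ies6Δ and 0 in wildtype. The plus border and +1 again separated the mutants, whereas the proximal linker did not separate them by this count. The limit of 20% is one of raw reads and is not scaled to the array, whose methylation was itself highest in isw2Δ and lowest in wildtype.

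In wildtype, molecules with an open NFR also had a more open plus border. Reads with 3 or more methylated bases in the NFR were 484 of 715 forward reads and 642 of 780 reverse reads. Over the plus border, these reads were methylated to 7.05% (forward) and 26.1% (reverse), and the other reads to 0.244 and 3.62%. The ratios of open to other reads were 28.9 and 7.21 there, 2.98 and 6.56 at the minus border and 4.65 and 3.26 at +1. At the proximal linker they were 3.59 and 4.53, and at the distal linker 2.46 and 2.70. They were 1.5 and 1.44 at the linker between +2 and +3, the lowest of the regions, and 2.20 and 2.15 at +3. Reads of a library can differ in how well they were methylated as a whole, and its part in these ratios was not tested. In the mutant libraries at most 56 reads per strand had fewer than 3 methylated bases in the NFR, too few for a like comparison.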

How the data were processed

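MATAC-Seq data of 5 libraries (2 of isw2Δ, 2 of ies6Δ and 1 of wildtype) were used. Per the labels the genome build is R64. The study's methods name Megalodon for base calling and for detecting CpG and m6A methylation, and thresholds for making the calls binary. GpC calls are not named there. The deposited tables hold fractions per base that, by their values, are either 0 or 1, each line being a read and each column a position, without normalization. The calling thresholds could not be varied.

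The means of forward and reverse reads were joined into a profile, which was scaled to the average of the library's nucleosomal array. Levels were averaged over 152 windows of 30 bp and over 52 regions and stretches of the 4 rings. Log2 levels of all 5 libraries were fitted with limma (2 residual degrees of freedom, Benjamini-Hochberg adjustment, threshold 0.05). limma pooled the spread over all rows, which gave 304 total degrees of freedom for windows and 104 for regions. Rows of the same 5 libraries, among them neighbouring windows, were thereby counted as independent, so small p-values do not rest on library replication alone. Pooling gave a single standard error per contrast: 0.148 for windows and 0.119 for regions against wildtype, and 0.121 and 0.0974 between the mutants. This spread comes from the mutant pairs, so p-values do not measure that of wildtype, and they measure the spread between libraries that the study calls biological replicates. The NFR edge was read from a 30-bp running mean at a level of 1.5. Regions and members were chosen with earlier results of these data known. All regions and windows are reported. Single positions were named as the highest of wildtype in the NFR and the linker and as the largest change in each mutant. Primer sequences were placed by their called strands, and 1 incomplete read of the naked plasmid was left out.

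On simulated data for isw2Δ against wildtype (20 sets, 30 of 152 windows changed), limma recovered 66.3% of windows with a log2 change of 0.5 and 100% with 1. Of the calls, 3.16 and 3.23% were false. Noise was drawn independently for each window with the spread of the mutant pairs, also for wildtype. The simulation therefore cannot show the rate of false calls for the real wildtype library, nor for windows that vary together. Alternatives covered the spike-in, strands, window sizes, a filter on low positions, a trend, a replicate block, single libraries left out, and the level and running mean of the edge. Python 3.11.15, NumPy 2.4.6, SciPy 1.17.1, Matplotlib 3.10.9, R 4.3.3 and limma 3.58.1 were used.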

Additional observations from a re-analysis of the deposited data

Results flagged for a closer look

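The plus border of the NFR was set apart because its change differed between the mutants when the difference itself was tested. The level was 2.22 ± 0.0398 in isw2Δ and 1.72 ± 0.0266 in ies6Δ (SD, n = 2 each) and 1.19 in wildtype, and isw2Δ exceeded ies6Δ by a log2 difference of 0.370 (limma over all regions, adjusted p = 0.00639), with both isw2Δ libraries above both ies6Δ libraries. The call was lost without either isw2Δ library, on reverse reads alone and after division by windows 1 to 16 of the ring.

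The proximal linker was set apart for the same reason, in the other direction. Its level was 1.5 ± 0.00876 in isw2Δ and 1.85 ± 0.0195 in ies6Δ (SD, n = 2 each) and 1.14 in wildtype, and isw2Δ minus ies6Δ was -0.301 (adjusted p = 0.0331 from limma), with both isw2Δ libraries below both ies6Δ libraries. The call was lost without any of the 4 mutant libraries, on forward reads alone (-0.36, adjusted p = 0.0978 from limma) and on reverse reads alone (-0.24, adjusted p = 0.305), and the difference was -0.024 with the naked plasmid and 0.024 without normalization.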

How the results depend on the processing

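The depth of at least 715 reads per strand kept counting error small. The limits lie in the single wildtype library, the fixed calling thresholds and the 52 reverse reads of its naked plasmid. Adenine positions alone could not be run, since no genome placed the ring, and the running means do not apply to the linker ratio. The replicate numbers of isw2Δ and ies6Δ only name the libraries: deviations of same-numbered libraries correlated at 0.113 over 152 windows, with 2 pairs.

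The number of windows past the threshold in isw2Δ against wildtype, 13 of 20, was 6 on forward reads alone, 23 of 40 windows of 15 bp and 5 of 10 windows of 60 bp. In ies6Δ against wildtype, 7 became 0 with the naked plasmid (limma, 7 at an unadjusted p under 0.05), 16 without normalization, 13 over positions methylated in at least 5% of reads and 15 at 15 bp. Between isw2Δ and ies6Δ, 3 became 1 with the naked plasmid, 1 on forward reads alone and 5 at 15 bp. With single libraries left out these counts were 10 to 13, 5 to 7 and 1 to 3.

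The number of regions in isw2Δ against wildtype, 7 of 9, was 4 after division by windows 1 to 16 of the ring, 2 on forward reads alone (1 higher and 1 lower) and 3 with the replicate block. In ies6Δ against wildtype, 4 became 2 with the naked plasmid, 8 without normalization, 7 over positions methylated in at least 5% of reads and 2 with the replicate block. On forward reads alone there were 3 in ies6Δ, 2 higher and 1 lower. The lower one was the linker +2/+3 in both mutants. Between isw2Δ and ies6Δ, 2 became 6 without normalization, 1 after division by windows 1 to 16, 1 with forward reads only, 0 with reverse reads only (1 at an unadjusted p under 0.05) and 0 with the replicate block (5 at an unadjusted p under 0.05; the plus border and the proximal linker both at adjusted p = 0.107). Single libraries left out gave 5 to 7, 4 and 0 to 3, with 0 without either isw2Δ library (2 and 3 at an unadjusted p under 0.05). With the replicate block the windows past the threshold were 12, 5 and 2.

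Between isw2Δ and ies6Δ the called difference of the proximal linker, -0.30, turned to 0.024 without normalization. The other directions that turned belonged to changes that had not passed the threshold. Between isw2Δ and ies6Δ the NFR was 0.21 with the naked plasmid, 0.26 without normalization and 0.0014 without ies6Δ replicate 2. The +2 nucleosome was -0.13 in isw2Δ and -0.22 in ies6Δ on forward reads alone, -0.0072 in ies6Δ without replicate 1, and between the mutants -0.012 after division by windows 1 to 16 and -0.071 to 0.22 with single libraries left out. The linker +2/+3 in isw2Δ was 0.12 with the naked plasmid, 0.58 without normalization and 0.13 on reverse reads alone. In ies6Δ it was 0.35 without normalization and 0.13 on reverse reads alone, and between the mutants 0.18, 0.23 and 0.0030 in the settings named for isw2Δ.

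The plus edge of isw2Δ, 61.5 bp beyond wildtype, was 21.5 bp beyond it at a level of 2, 10 bp at mid-height, 10 bp with a running mean of 15 bp, 65 bp with the naked plasmid, 10 bp on forward and 37.5 bp on reverse reads alone, and 60 bp with positions under 3% in naked DNA set to 0. The width, 68 bp more than in wildtype, was 28, 11, 12.5, 78, 15, 43.5 and 66.5 bp more in these settings. The edge of ies6Δ, 18 bp beyond wildtype, was 14.5 bp beyond it at a level of 2, 3 bp at mid-height, 6.5 and 25 bp with running means of 15 and 50 bp, 19.5 bp with the naked plasmid, and 7.5 and 0 bp with forward and reverse reads taken singly. Its width, 23.5 bp more, was 19.5, 3, 7.5, 31, 25.5, 10 and 6 bp more.

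The linker summit of ies6Δ, -65 bp from that of wildtype, was at -72 and 0 bp with running means of 15 and 50 bp, 0 and 73 bp with forward and reverse reads taken singly and -60 bp after division by naked DNA. That of isw2Δ, at -4.5 bp, was at 43 bp with a running mean of 50 bp, 73 bp on reverse reads alone and -58.5 bp after division by naked DNA. The log2 ratio of the distal to the proximal linker kept its direction. In isw2Δ, 0.16 above wildtype, it was 0.27 and 0.073 with forward and reverse reads taken singly, 0.061 after division by naked DNA and 0.077 with positions under 3% set to 0. In ies6Δ, at -0.26, it was -0.20 on forward reads alone, -0.39 after division by naked DNA and -0.35 with positions under 3% set to 0. Of these losses and reversals the cause was not tested.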
